A study of Mus musculus with 6 samples.

Results

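Mesothelial cells cover the outer surface of the lung as a single sheet. In these data they were 71 of 28516 deposited barcodes, or 71 of 20912 barcodes taken by their reads as the sorted non-blood cells (niche cells). Niche cells passed the limits on genes and mitochondrial UMIs given next and those on Ptprc, Trap1a and Trnp1 below. Blood cells without a Ptprc UMI can be among them. The mesothelial cells were chosen by their own reads: barcodes with at least 500 genes and at most 15% mitochondrial UMIs (24640 barcodes), whose UMIs of Msln, Upk3b, Lrrn4 and Wt1 summed to 3 or more. In addition, the endothelial genes Cdh5, Pecam1 and Cldn5 had at most 1 UMI in all, the leukocyte gene Ptprc had none, Sftpc of alveolar type 2 cells was below 1% of UMIs, and Trap1a and Trnp1, used here as marks of the leukaemia cells, had at most 1 UMI in all. A UMI is a molecular barcode that counts 1 captured RNA molecule.

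The study profiled single cells of mouse lungs in 3 AML libraries, from lungs infiltrated by Trp53 R172H/Δ acute myeloid leukaemia (AML), and in 3 Control libraries, from normal lungs, with droplet capture of RNA 3′ ends. All lungs were digested with Liberase and DNaseI and sorted for niche cells, and in the AML libraries alone sorted GFP+ leukaemia cells were then added, at a stated 20% of leukaemia to 80% of niche cells. Strain, sex, age, duration of disease and whether a library is 1 mouse or several are not given in the sources used here, so the p-values cover no more than how far the libraries of a group lie apart, and that distance can be technical. The addition of these cells went with the group, so its part in any difference cannot be told apart from that of the leukaemia in the lung. Mesothelial cells numbered 22, 19 and 12 in AML libraries 1, 2 and 3 (53 in all), against 7, 5 and 6 in Control libraries 1, 2 and 3 (18 in all), and values of 3 libraries are given in this order throughout.

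As background, mesothelial cells arise from the lateral plate mesoderm and combine epithelial features, such as keratins, apical villi and tight junctions, with mesenchymal ones, such as vimentin. The layer on the lung, the visceral pleura, secretes a lubricating glycocalyx of mucins and hyaluronan, makes complement proteins and cytokines, and in the embryo signals to the growing lung through fibroblast growth factors and retinoic acid. Wt1 is a transcription factor of the mesothelium, Msln encodes the surface protein mesothelin, Upk3b a uroplakin, and Lrrn4 a leucine-rich repeat membrane protein.

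The rule's genes separated the cells clearly, which is how the cells were chosen and therefore a description without a test. In CPM (UMIs of a gene per 1000000 UMIs summed over a class of cells), Msln was at 2177 CPM in mesothelial cells, 0 in fibroblasts and 2.24 in the other niche cells, and Upk3b at 2276 CPM in mesothelial cells, 0 in fibroblasts and 1.99 in the other niche cells. Lrrn4 was at 549.5 CPM in mesothelial cells, 0 in fibroblasts and 0.53 in the other niche cells. Wt1 was at 175 CPM in mesothelial cells, 0.166 in fibroblasts and 0.133 in the other niche cells. Fibroblasts, taken here as the mesenchymal class for comparison, were 977 barcodes with 5 or more UMIs of Col1a1, Col1a2, Dcn and Pdgfra and the same exclusions. They also had at most 1 UMI of Msln, Upk3b, Lrrn4 and Wt1 in all, so the low values of these 4 genes in fibroblasts were set by that rule. At least 1 UMI was present in 70 of 71 mesothelial cells for Msln, 69 for Upk3b, 63 for Lrrn4 and 50 for Wt1, and the median cell held 18, 19, 4 and 1 UMIs of them. All 4 genes were present in 48 cells, 3 in 15 cells and fewer in 8. The summed marker UMIs of a cell had a lowest value of 3, a median of 47 and a highest of 170. Among barcodes that met every exclusion, 2486 had a sum of 0, 14 a sum of 1 and 2 a sum of 2, just below the threshold, while 1 barcode each had 3, 4 and 5, none had 6, 3 had 7 and 65 had 8 or more.

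**Figure D1:**
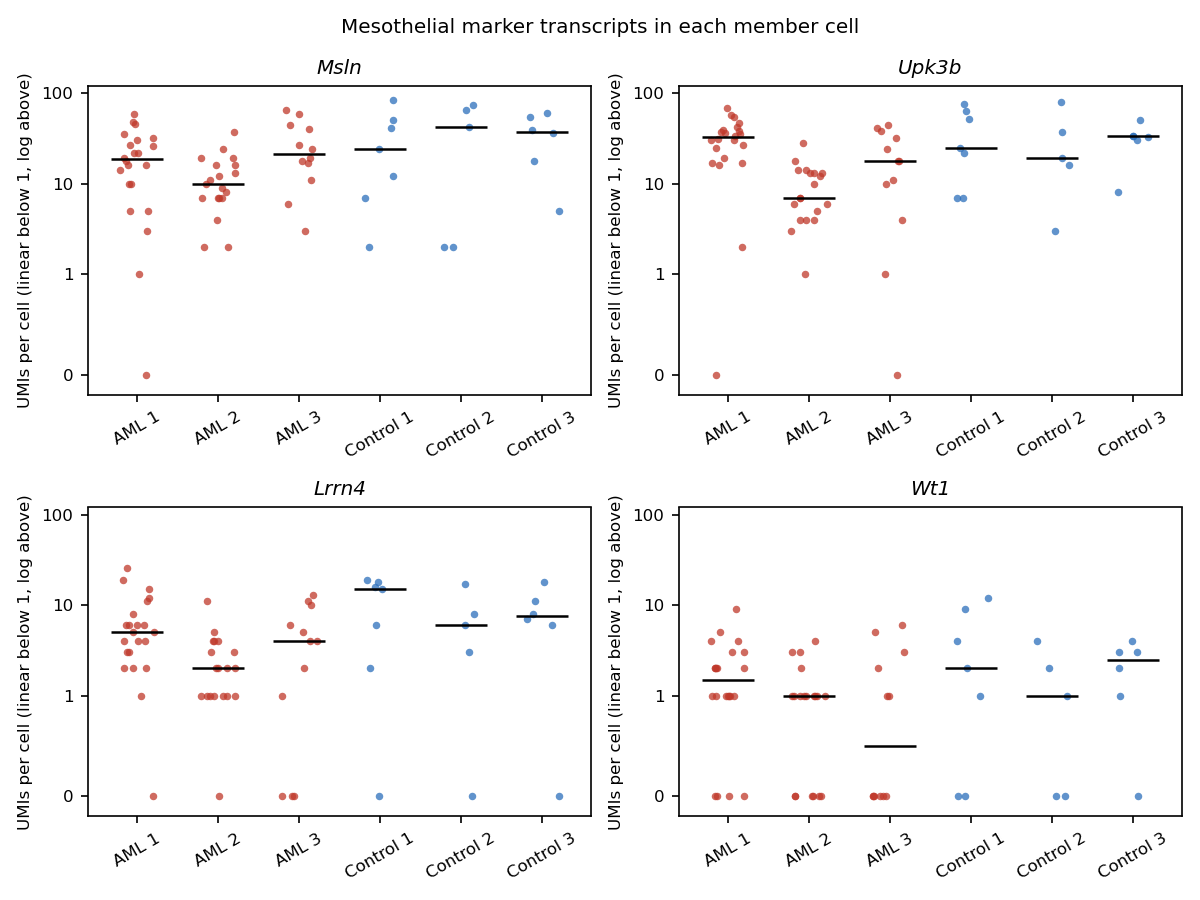
UMIs per cell (vertical axes, linear below 1 and log above) of Msln, Upk3b, Lrrn4 and Wt1 in each mesothelial cell, by library, AML libraries to the left of Control libraries; each point is 1 cell and each line a library's median. Median cells of all libraries hold 18 UMIs of Msln and 19 of Upk3b against 1 of Wt1, and the highest cells reach 83, 79, 26 and 12 UMIs of the 4 genes in that order.

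Markers of blood and endothelial cells were low in the summed mesothelial cells, while those of fibroblasts were not. Those of alveolar type 1 cells were highest in AML library 3, where 1 cell held 383 UMIs of their list. Ptprc and Trap1a had no UMI, Cdh5 2, Pecam1 2 and Cldn5 6, of 755220 UMIs in all, but these 5 genes were part of the rule. Of lists the rule did not use, 9 of 10 lymphoid genes were at 0, as were 6 of 12 myeloid genes (Itgam, Itgax, Tyrobp, Fcer1g, Laptm5 and Coro1a), and Tie1 of the 10 endothelial genes. The endothelial list summed to 603 ± 153 CPM in AML and 459.7 ± 262 CPM in Control mesothelial cells, against 14905 and 11992 CPM in the other niche cells of AML and Control libraries. The myeloid list summed to 63.6 ± 4.14 CPM in AML and 45.3 ± 16.9 CPM in Control mesothelial cells (SD, n = 3 libraries each), against 5489 and 4485 CPM in the other niche cells of AML and Control libraries. The leukaemia list, which also holds genes of other cells such as Apoe and Cd34, summed to 1565 ± 38.6 CPM in AML and 1982 ± 317 CPM in Control mesothelial cells, with 6 of 10 genes at 0 (Gata2, Gata1, Kit, Myb, Car1 and Cpa3). Its sum was 1164 and 1233 CPM in the other niche cells of AML and Control libraries. The alveolar type 1 list summed to 2211 ± 1798 CPM in AML and 617 ± 187 CPM in Control mesothelial cells, against 2380.2 and 2465 CPM in the other niche cells. By library it was at 837, 1551 and 4245 CPM in AML, against 472, 828 and 551 CPM in Control mesothelial cells. The fibroblast list summed to 6419 ± 583 CPM in AML and 7392 ± 2942 CPM in Control mesothelial cells, against 1606 and 1583 CPM in the other niche cells. In fibroblasts themselves it summed to 13682 and 14596 CPM. The erythroid and platelet list summed to 11.6 ± 20.0 and 35.4 ± 31.3 CPM, the muscle and pericyte list to 49.5 ± 35.03 and 84.7 ± 105 CPM, the alveolar type 2 list without Sftpc to 68.7 ± 8.22 and 57.4 ± 28.9 CPM and the airway list to 192 ± 224 and 42.0 ± 33.3 CPM, in AML and Control. Sftpc gave 79 UMIs over 40 of the 71 cells (105 CPM), below its 174 CPM in fibroblasts and its 35260.0 CPM in the other niche cells, which include the alveolar type 2 cells. Of 20 proliferation genes 8 had no UMI in any mesothelial cell, Mki67 and Top2a among them. The list summed to 876 ± 133 CPM in AML and 944 ± 369 CPM in Control mesothelial cells, against 1547 and 1451 CPM in the other niche cells, and 69 of the 71 cells had a UMI of the list.

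A few measured limits touch the values that follow. Mesothelial cells were deep but few: the median cell had 9697.5, 6059 and 9565 UMIs in the AML libraries, against 16581, 9379 and 12372 UMIs in the Control libraries, and the summed cells 230555, 129612 and 117069 UMIs, against 150494, 60360 and 67130 UMIs, of 200428570 UMIs in the series. Single cells therefore weighed on the Control sums, where the deepest cell of each library held 42.6, 34.7 and 22.9% of the mesothelial UMIs, against 10.0, 9.56 and 14.2% in the AML libraries. Some cells also carried genes listed for a second type. A cell of 15198 UMIs in AML library 3 had 44 UMIs of Msln and none of Upk3b, Lrrn4 or Wt1, but 383 UMIs of the alveolar type 1 list, among them 214 of Ager. A cell of 14046 UMIs in AML library 1 had no Msln or Upk3b UMI, 3 of Wt1, 180 of Dcn and 68 of the chemokine Cxcl13. The deepest cell of Control library 1, with 64184 UMIs, had all 4 markers together with 721 UMIs of Dcn, 101 of Tmem119 and 48 of Igf1. Dcn alone does not mark a second type here, since its level over all libraries was higher in mesothelial cells than in fibroblasts. A doublet caller (Scrublet) marked 2 mesothelial cells, both in AML library 1 and the Cxcl13 cell among them. Results resting on such cells are named as they come, and each count was repeated without the deepest cell of every library. Pairs of libraries shared 1 to 24 barcodes, and no mesothelial cell's barcode stood as mesothelial in a second library.

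Beyond the 4 genes of the rule, the cells carried the wider mesothelial repertoire. Of 19 other genes known from mesothelium, 18 had UMIs, and Calb2, which encodes calretinin, had none. They summed to 23224 ± 1739 CPM in AML and 19070.0 ± 5804 CPM in Control mesothelial cells (SD, n = 3 each), against 523 ± 87.3 and 409.5 ± 63.6 CPM in the other niche cells. Of 3201 genes with 40 or more UMIs in the mesothelial cells, 215 were at least 10 times and 40 at least 100 times as high in CPM as in the other niche cells, which again describes the choice of the cells.

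Among the 25 genes of highest ratio were products of the surface layer. Muc16, the large mucin that binds mesothelin, was at 1384, 1173 and 982 CPM in the AML libraries, against 837, 1209 and 1162 CPM in the Control libraries, and reached 66 of 71 cells with none in fibroblasts. Chst4, a sulfotransferase acting on carbohydrate chains, was at 234, 208 and 137 CPM in AML, against 73.1, 182 and 179 CPM in Control. The groups overlapped in both genes. Gpm6a, a membrane glycoprotein, was at 1604 CPM in mesothelial cells, 0.332 in fibroblasts and 2.94 in the other niche cells. Nkain4, a partner of the sodium pump, was at 1287 CPM in mesothelial cells, 31.2 in fibroblasts and 5.87 in the other niche cells. Cldn15, a claudin of tight junctions, was at 436 CPM in mesothelial cells, 0.332 in fibroblasts and 1.46 in the other niche cells. The gap junction gene Gjb5 and the matrix gene Fras1 belonged to the same 25.

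Others of the 25 have varied roles. Rspo1, which strengthens Wnt signalling, was at 365 CPM in mesothelial cells, 5.15 in fibroblasts and 0.894 in the other niche cells. Aldh1a2, the enzyme that makes retinoic acid, was at 528 CPM in mesothelial cells, 15.6 in fibroblasts and 1.45 in the other niche cells. Calcb, a calcitonin-related peptide gene with the highest ratio of all, was at 73.7, 216 and 111 CPM in AML libraries and 6.64, 33.1 and 14.9 CPM in Control libraries, without overlap, in 17 AML and 4 Control cells. Slurp1, a small secreted Ly6-family protein, was at 1292, 123 and 1247 CPM in the AML libraries, against 173, 166 and 59.6 CPM in the Control libraries, and these groups overlapped, AML library 2 being low. Bnc1, which encodes the transcription factor basonuclin, was at 108, 69.4 and 59.8 CPM in AML, against 66.4, 82.8 and 134 CPM in Control, again with overlap. Tat, the tyrosine-degrading aminotransferase best known from liver, was at 312 CPM in mesothelial cells, 0 in fibroblasts and 0.29 in the other niche cells. The remaining genes of the 25 were Rpp25, A730046J19Rik, Tm4sf5, Tmem151a, Sfmbt2, Lgals2, Spink2, Acsm3, C2, Pkhd1l1, Ereg and Cxcl13. The epidermal growth factor receptor ligand Ereg stood there through 52 of 54 UMIs in the alveolar type 1 marked cell of AML library 3, and Cxcl13 through 71 UMIs in 3 cells.

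**Figure D2:**
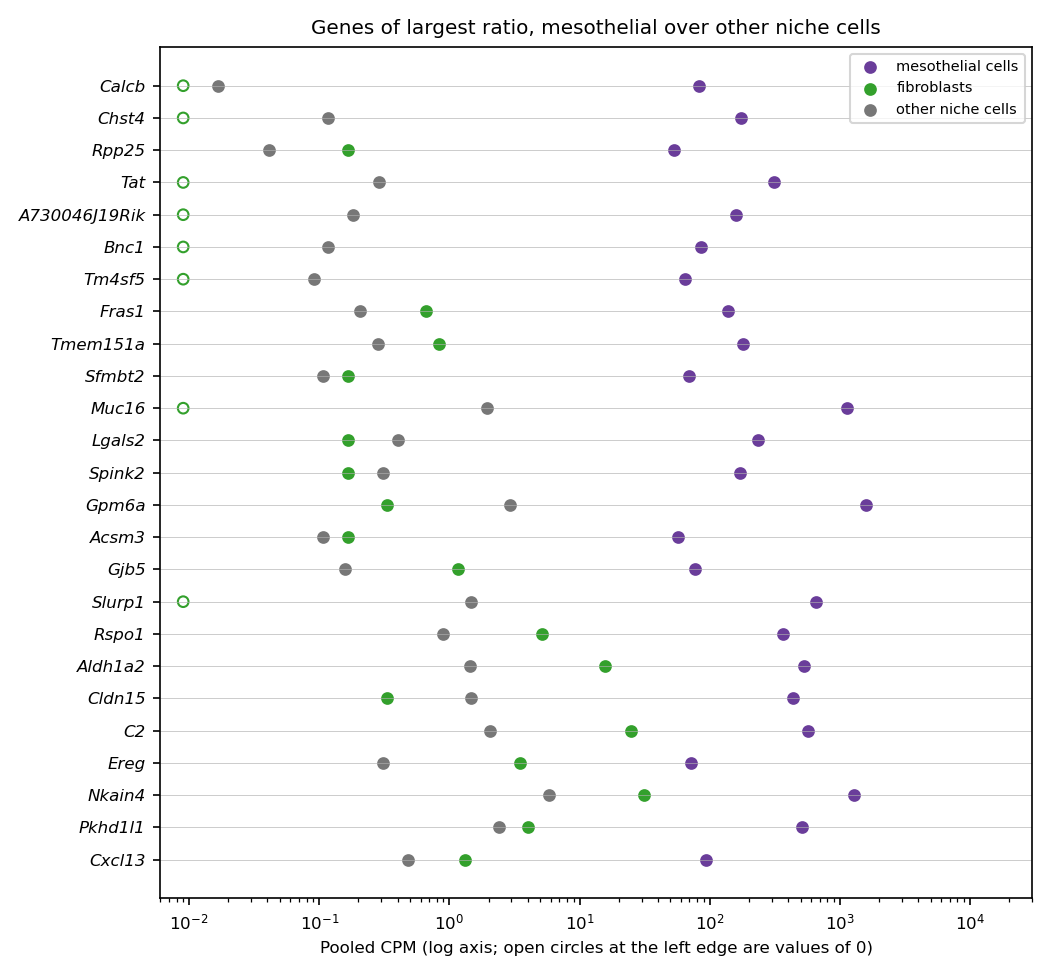
Pooled CPM (horizontal log axis) of the 25 genes of highest ratio (rows) in mesothelial cells, fibroblasts and the other niche cells, each point 1 class over all libraries; open circles at the left edge are values of 0. Muc16 stands at 1143 CPM in mesothelial cells, 0 in fibroblasts and 1.93 CPM in the other niche cells, and Ereg, C2 and Aldh1a2 are nearest to fibroblasts, at 20.5, 22.6 and 33.8 times their level.

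Keratins and other filament genes, matrix genes and growth factors were also set beside the levels in fibroblasts. The keratin Krt19 was at 1128 CPM in mesothelial cells, 14.1 in fibroblasts and 28.7 in the other niche cells, and Krt8, Krt18 and Krt7 were at 412, 448 and 463 CPM in mesothelial cells and 0.664, 1.99 and 1.66 CPM in fibroblasts. Ezr, which encodes the villus protein ezrin, was at 1078 CPM in mesothelial cells, 71.3 in fibroblasts and 112 in the other niche cells. The intermediate filament gene Vim was present in all 3 classes, at 1565 CPM in mesothelial cells, 1829 in fibroblasts and 909 in the other niche cells. Dcn, the proteoglycan decorin, was at 5598 CPM in mesothelial cells, 3005 in fibroblasts and 178 in the other niche cells. The collagen gene Col1a1 was at 166 CPM in mesothelial cells, 609 in fibroblasts and 38.9 in the other niche cells. Dcn was thus higher and Col1a1 lower in mesothelial cells than in fibroblasts, and both genes helped to choose the fibroblasts. Of the insulin-like growth factor binding proteins, Igfbp5 was at 8498 CPM in mesothelial cells, 324 in fibroblasts and 90.2 in the other niche cells, and Igfbp6 at 6843 CPM in mesothelial cells, 674 in fibroblasts and 76.3 in the other niche cells. Fgf9, a growth factor that the embryonic pleura sends to the lung, was at 50.3 CPM in mesothelial cells, 2.66 in fibroblasts and 0.331 in the other niche cells. Fgf18 of the same family was at 115 CPM in mesothelial cells, 14.8 in fibroblasts and 1.57 in the other niche cells.

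Complement genes, which mark and opsonise microbes, took a larger part of the RNA in mesothelial cells than in fibroblasts or the other niche cells. The 12 listed genes summed to 10475, 9929.6 and 11438 CPM in AML mesothelial cells, against 13821, 14165 and 15433 CPM in Control mesothelial cells. The 3 AML sums lay below the 3 Control sums. In fibroblasts the same genes summed to 3676 CPM in AML and 3336 CPM in Control libraries on average, and in the other niche cells to 380.2 and 309 CPM. C3, the central component, was at 4603 CPM in mesothelial cells, 415 in fibroblasts and 45.0 in the other niche cells, and C4b, its partner in the classical pathway, at 1863 CPM in mesothelial cells, 192 in fibroblasts and 13.7 in the other niche cells. Cfb, the factor of the alternative pathway, was at 509.8 CPM in mesothelial cells, 25.4 in fibroblasts and 2.89 in the other niche cells. Serping1, which encodes the C1 inhibitor, was nearly level with fibroblasts, at 1543 CPM in mesothelial cells, 1406 in fibroblasts and 98.7 in the other niche cells.

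The share of mesothelial cells among niche cells was the first comparison between groups. It was 0.5731% (22 of 3839 cells), 0.5285% (19 of 3595) and 0.2502% (12 of 4797) in the AML libraries, against 0.4199% (7 of 1667), 0.1378% (5 of 3628) and 0.1772% (6 of 3386) in the Control libraries. AML libraries 1 and 2 were above all Control libraries, while AML library 3 was below Control library 1, so the groups overlapped. The mean was 0.451 ± 0.175% in AML and 0.245 ± 0.153% in Control (SD, n = 3 each), a difference of 0.206 percentage points that did not pass an exact two-sided permutation test over libraries (p = 0.2; the smallest p that 3 against 3 libraries allow is 0.1). Exact binomial 95% intervals, which cover counting error only, ran from 0.359 to 0.866% in AML library 1 and from 0.129 to 0.437% in AML library 3, against 0.0448 to 0.321% in Control library 2. As a percent of niche cells that were not endothelial, the share was 3.42, 2.05 and 1.14% in AML, against 2.58, 1.08 and 1.34% in Control. There were 0.138, 0.0751 and 0.0488 mesothelial cells per fibroblast in AML libraries, against 0.0972, 0.0382 and 0.0522 in Control libraries. The digestion and the sort can set all these shares, and their part was not tested.

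**Figure D3:**
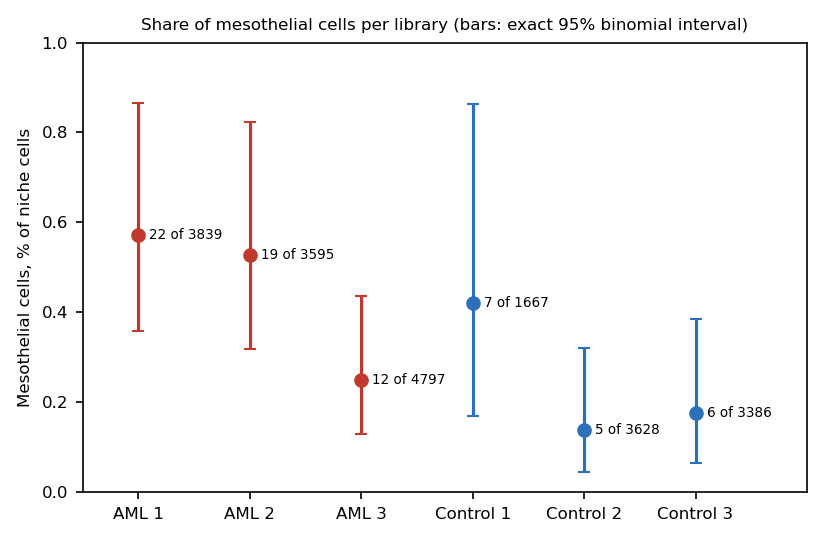
Percent of niche cells that were mesothelial in each library (vertical axis), AML to the left of Control; points are libraries, with exact binomial 95% intervals and the numbers of cells beside them. AML libraries 1 and 2 lie above the Control libraries, and AML library 3 lies among them.

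Gene levels between AML and Control mesothelial cells were then compared over the summed UMIs of each library. Of 2174 genes with enough UMIs, none passed edgeR's quasi-likelihood test at a Benjamini-Hochberg adjusted p of 0.05, a background of 0% called, and the smallest adjusted p was 0.189. At an unadjusted p under 0.05 stood 171 genes, 82 of them higher in AML (3.77% of the genes tested) and 89 lower (4.09%), and DESeq2 called 1 gene on the same counts, the keratin Krt18. Libraries of the groups did not overlap in 173 genes that were higher in AML (7.96%) and in 119 that were lower (5.47%). The genes named next are the 10 of smallest p per direction among those without overlap, so their separation is how they were picked, and they are given as values and not as changes. Leaving out 1 library gave at most 3 called genes, among them Ifit3, Spink2 and Anxa8, all higher, without AML library 3, Spink2 with lower Igf1 and Gm42418 without Control library 3, and Slurp1 without AML library 2. Igf1, Gm42418, Slurp1 and Krt18 are named here after their values were seen.

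On the side of higher levels in AML, the gene of smallest p was Ifit3, an interferon-induced antiviral protein. Ifit3 was at 156, 162 and 94.0 CPM in AML libraries and 19.9, 0 and 14.9 CPM in Control libraries, from 36, 21 and 11 UMIs, against 3, 0 and 1 UMIs. Each AML library was well above each Control library, with a log2 difference of 3.15 ± 0.62 (SE) and an adjusted p of 0.189. Ifitm3, an interferon-induced membrane protein that hinders virus entry, was at 3652, 3117 and 2691 CPM in the AML libraries, against 1728, 1309 and 1758 CPM in the Control libraries, a log2 difference of 0.93 ± 0.24 with an adjusted p of 0.206. Its lowest AML library was well above its highest Control library. Spink2, a Kazal-type serine protease inhibitor and one of the 25 genes of highest mesothelial ratio, was at 282, 278 and 137 CPM in AML, against 19.9, 33.1 and 104 CPM in Control (log2 difference 2.30 ± 0.51, adjusted p 0.206). Anxa8, a membrane-binding annexin, was at 260.2, 378 and 111 CPM in AML libraries and 39.9, 16.6 and 104 CPM in Control libraries (log2 difference 2.22 ± 0.54, adjusted p 0.206). In Spink2 and Anxa8, AML library 3 lay close to Control library 3.

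Both cold-inducible RNA-binding genes were among the 10. Rbm3 was at 455, 795 and 709 CPM in the AML libraries, against 272, 232 and 209 CPM in the Control libraries, and Cirbp at 95.4, 309 and 137 CPM in AML, against 33.2, 49.7 and 29.8 CPM in Control, with log2 differences of 1.37 ± 0.34 and 2.18 ± 0.56 and adjusted p values of 0.206 and 0.206. The groups did not overlap in the other niche cells either, where Rbm3 was at 394, 818 and 626 CPM in AML and 174, 239 and 208 CPM in Control libraries and Cirbp at 98.7, 220.1 and 168 CPM in AML and 37.0, 52.4 and 48.5 CPM in Control libraries. The AML and Control difference of mesothelial cells minus that of the other niche cells was not past the threshold in either gene (differences of -0.07 ± 0.39 and 0.41 ± 0.58 on the log2 scale, adjusted p 1 and 1). The remaining 4 genes were Prdx5, a peroxide-reducing enzyme of mitochondria and peroxisomes, at 247, 324 and 299 CPM in AML libraries and 73.1, 66.3 and 149 CPM in Control libraries, Slc6a6, the taurine transporter, Slc43a3, a purine transporter, and Hopx, a transcriptional co-regulator best known in the lung from alveolar type 1 cells.

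Slc6a6 was at 130.1, 201 and 111 CPM in the AML libraries, against 39.9, 33.1 and 44.7 CPM in the Control libraries, and Slc43a3 at 247, 725 and 299 CPM in AML, against 99.7, 166 and 59.6 CPM in Control. Hopx was at 160.5, 363 and 273 CPM in AML libraries and 39.9, 133 and 44.7 CPM in Control libraries. These last values need the alveolar type 1 list beside them: its 9 genes summed to 837, 1551 and 4245 CPM in AML mesothelial cells, against 472, 828 and 551 CPM in Control mesothelial cells, with Rtkn2 at 0, and 8 of 9 genes had UMIs. The high value of AML library 3 included the single cell with 383 such UMIs, which held 16 of the Hopx UMIs. The part of type 1 RNA in the Hopx values was not tested. Log2 differences of Prdx5, Slc6a6, Slc43a3 and Hopx ran from 1.58 to 1.94, each at an adjusted p of 0.206.

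**Figure D4:**
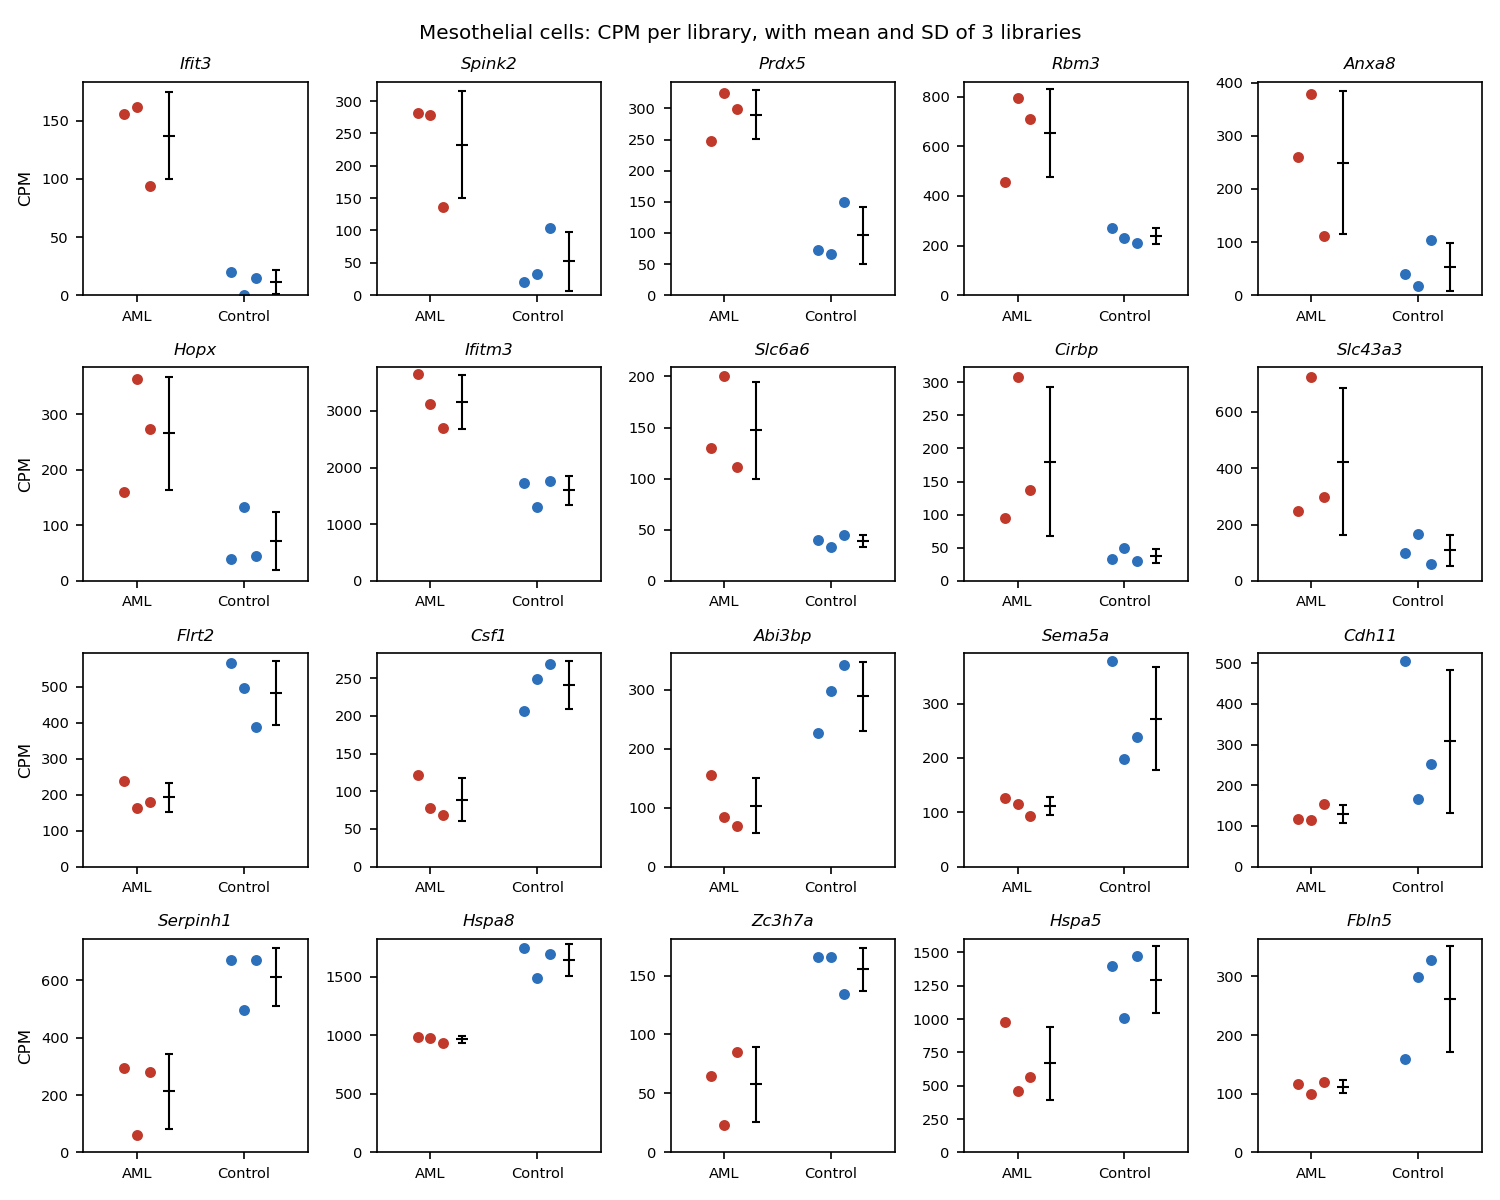
CPM (vertical axes, from 0) of the 20 named genes in mesothelial cells, 1 panel a gene, AML left of Control; points are libraries, and bars are the mean and SD of 3 libraries. The 3 AML points lie above the 3 Control points in the 10 panels from Ifit3 to Slc43a3 and below them in the 10 panels from Flrt2 to Fbln5, which is how the genes were picked.

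On the side of lower levels in AML, several genes encode adhesion and matrix proteins. Flrt2, a leucine-rich repeat adhesion receptor, was at 239, 162 and 179 CPM in the AML libraries, against 565, 497 and 387 CPM in the Control libraries (log2 difference -1.37 ± 0.33, adjusted p 0.206). Cdh11, a cadherin of mesenchymal cells, was at 117, 116 and 154 CPM in AML, against 505, 166 and 253 CPM in Control. Its log2 difference of -1.41 ran from -1.65 to -0.73 over alternative settings and choices of cells or libraries. Abi3bp, a matrix protein, was at 156, 84.9 and 68.3 CPM in AML libraries and 226, 298 and 343 CPM in Control libraries. In these 3 genes the highest AML library still lay below the lowest Control library, closest in Cdh11, where Control library 2 was near the AML values. Fbln5, which helps to assemble elastic fibres, was at 117, 100.3 and 119.6 CPM in the AML libraries, against 159, 298 and 328 CPM in the Control libraries. Sema5a, a semaphorin, was at 126, 116 and 94.0 CPM in AML, against 379, 199 and 238 CPM in Control, but 42 of its 85 Control UMIs came from 1 cell. Csf1, the growth factor of macrophages, was at 121, 77.2 and 68.3 CPM in AML libraries and 206, 249 and 268 CPM in Control libraries, and the log2 differences of these genes apart from Flrt2 ran from -1.42 to -1.19 with adjusted p values of 0.206 to 0.29.

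Chaperones made up another part of this side. Serpinh1, the collagen chaperone of the endoplasmic reticulum, was at 295, 61.7 and 282 CPM in the AML libraries, against 671, 497 and 670.3 CPM in the Control libraries. Hspa5, the main chaperone of that compartment, was at 976, 463 and 564 CPM in AML, against 1402, 1011 and 1475 CPM in Control, and Hspa8, the constitutive cytosolic chaperone, at 985, 979.9 and 931 CPM in AML libraries and 1748, 1491 and 1698 CPM in Control libraries. Each AML library was below each Control library, with log2 differences of -1.56 ± 0.43, -1.0 ± 0.30 and -0.82 ± 0.24. Adjusted p values were 0.236, 0.29 and 0.249. The other niche cells held 501, 447 and 364 CPM of Hspa5 in AML, against 624, 589 and 582 CPM in Control libraries. The 16 listed heat shock genes summed to 6088.5 ± 626 CPM in AML and 7478.5 ± 1436 CPM in Control mesothelial cells. They summed to 5021 ± 552 and 7021 ± 611 CPM in fibroblasts and to 4031 ± 415 and 6441 ± 552 CPM in the other niche cells. A lower mean sum in AML was thus not particular to mesothelial cells. Zc3h7a, a zinc finger gene, completed the 10, at 65.1, 23.1 and 85.4 CPM in the AML libraries, against 166, 166 and 134 CPM in the Control libraries. Adjusted p values of all 20 genes lay between 0.189 and 0.290, so none of them is a call.

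The listed gene groups are given by how many members stood at an unadjusted p under 0.05, beside 3.77% higher and 4.09% lower over all 2174 genes, with a median log2 difference of -0.01. Of 9 complement genes tested, 4 were lower in AML and none higher, with 8 of 9 below 0 and a median of -0.52. C3 was at 3826, 2978 and 4954 CPM in AML, against 6406, 5351 and 5079.7 CPM in Control. C2, which helps to form the classical convertase, was at 399, 447 and 598 CPM in AML libraries and 704, 696 and 894 CPM in Control libraries. C1s1, a protease of the first component, was at 390.4, 301 and 316 CPM in the AML libraries, against 478, 530.1 and 596 CPM in the Control libraries. The groups did not overlap in these 3 genes. Of 13 endoplasmic reticulum stress genes, 3 were lower (Hspa5, Calr and Herpud1) and none higher (median -0.64, 12 of 13 below 0). Of 11 fibrillar matrix genes, 2 were lower (Col3a1 and Fbn1) and none higher (median -0.67, 10 of 11 below 0), and Col3a1 was at 351, 100.3 and 632 CPM in AML, against 950.2, 1110.0 and 685 CPM in Control. Of 7 genes of transforming growth factor beta and mesenchymal transition, only Tgfb2, a ligand of that pathway, was lower (median -0.86), at 117, 108 and 145 CPM in AML libraries and 173, 249 and 402 CPM in Control libraries. Of 7 fibroblast marker genes, 1 was lower and none higher (median -0.76), and the list summed to 6857, 6643 and 5757 CPM in AML, against 10466, 7107 and 4603 CPM in Control mesothelial cells. The sums overlapped, Control library 1 with its deep Dcn-bearing cell was highest, and the part of such RNA in the matrix values was not tested.

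Other groups were mixed or near the background. Of 18 mesothelial genes tested beyond the rule, 3 were higher (Krt18, Igfbp5 and Anxa8) and 1 lower (Efemp1), with a median of 0.16. Igfbp5 was at 10895, 9343 and 10421 CPM in the AML libraries, against 4685, 4539 and 7389 CPM in the Control libraries, without overlap (log2 difference 0.85 ± 0.23, adjusted p 0.207). Krt18 was at 325, 463 and 1426 CPM in AML, against 106, 82.8 and 223 CPM in Control (log2 difference 2.40 ± 0.61, adjusted p 0.237 in edgeR and 0.0275 in DESeq2), with 88 of its 302 AML UMIs in the alveolar type 1 marked cell. Of 6 surface glycocalyx genes, 1 was higher, the hyaluronan synthase Has1, at 99.8, 169.7 and 128 CPM in AML libraries and 39.9, 82.8 and 59.6 CPM in Control libraries, a list median of -0.09. The secreted protease inhibitor Slpi of the same list was at 473, 2423 and 923 CPM in the AML libraries, against 73.1, 7323 and 477 CPM in the Control libraries, widely spread within both groups. Of 15 oxidative defence genes, only Mgst1, a membrane glutathione transferase, was higher (median 0.39). Of 8 genes of antigen presentation by MHC class I, only H2-T23 was higher (median 0.22), and of 11 heat shock genes Hspb8 was higher and Hspa8 and Serpinh1 lower (median -0.28). Of 13 immediate early genes, Fosl2 was higher and Junb lower (median -0.60).

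None of 23 respiratory chain genes was at that threshold in either direction (median 0.16), nor was any of 7 junction genes (median -0.12), 5 growth signal genes (-0.33), 4 basement membrane genes (-0.47), 4 chemokine genes (-0.41), 3 p53 target genes (-0.19), 3 proliferation genes (-0.51) or 2 interferon gamma genes (-0.32). Single genes stood there in the lists of keratins and cytoskeleton (Krt18 of 8, median 0.28), insulin-like growth factor binding (Igfbp5 of 5, -0.27), mesoderm transcription factors (Id1 of 9, higher, 0.18), glucocorticoid response (Fkbp5 of 9, higher, 0.29), glycolysis (Ndrg1 of 8, lower, 0.01), lipid handling (Apoe of 4, lower, -0.73) and blood cell support (Csf1 of 2, lower, -0.52). All 3 alveolar type 1 genes tested (Hopx, Emp2 and Spock2) were higher, with a median of 1.35, and of 2 leukaemia-list genes Cd34 was higher and Apoe lower. The single endothelial gene tested was not at the threshold, and no gene of the lists of MHC class II, muscle and pericyte, alveolar type 2, airway, myeloid, lymphoid, or erythroid and platelet genes had enough UMIs to be tested. Of 24 respiratory chain genes 23, and of 24 type I interferon genes 6, had enough UMIs, so a list's count covers its abundant members.

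Several type I interferon response genes, which cells switch on against viruses, differed between AML and Control in another way in mesothelial cells than in the other niche cells. Ifit3, Ifit1, Isg15, Rtp4, Ifi44 and Oasl2 passed the test of that difference. The 24 listed genes summed to 5717, 4683 and 4049 CPM in AML mesothelial cells, against 2897, 2021 and 3009 CPM in Control mesothelial cells, without overlap. Ifitm3 alone made up most of each AML sum. The other 23 genes summed to 2065, 1566 and 1358 CPM in AML, against 1169, 712 and 1251 CPM in Control mesothelial cells, still without overlap. AML library 3 was close to Control library 3. All 24 genes summed to 2199.5 ± 382 CPM in AML and 3008 ± 667 CPM in Control libraries in the other niche cells (SD, n = 3 each). In fibroblasts all 24 summed to 2343 ± 151 and 2021 ± 359 CPM. Without Ifitm3 the sums were 807.5 ± 225 CPM in AML and 1365 ± 210 CPM in Control libraries in the other niche cells. They were 616 ± 150 and 668.5 ± 4.36 CPM in fibroblasts, so the higher fibroblast mean in AML rested on Ifitm3. Of the 6 list genes tested between groups in mesothelial cells alone, Ifit3 and Ifitm3 were at an unadjusted p under 0.05, both higher, with a median of 0.63.

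The difference itself was tested in 1 model over both classes, with the library as a block, as the AML minus Control log2 difference of mesothelial cells minus that of the other niche cells. The other niche cells are a mixture of cell types. Fibroblasts, for example, were 4.17, 7.04 and 5.13% of niche cells in AML, against 4.32, 3.61 and 3.40% in Control libraries. The part of this make-up in the differences was not tested. Of 13804 genes, 23 were called above 0 (0.167%) and 10 below 0 (0.0724%) by edgeR's quasi-likelihood test at an adjusted p of 0.05. Of the 24 type I interferon genes, 6 were among the 23, and none among the 10. The list had 23 of 24 genes above 0 and a median of 1.59, beside 0.14 over all genes tested. Such a median was not particular to this list. It was 1.615 in the interferon gamma list (15 of 19 genes above 0), 2.50 in the MHC class II list (6 of 7) and 2.48 in the airway list (9 of 9). Medians of the remaining lists were lower. Over the alternatives tried, 2 to 8 type I interferon genes were called above 0, 22 to 24 of them were above 0 and their median was 1.42 to 2.19. The count was 2 without AML library 1, AML library 2 or Control library 2, and Ifit3 alone of the 6 was called under all 14 alternatives.

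Ifit3, at the mesothelial levels given above, was at 17.7, 10.5 and 7.60 CPM in AML and 14.2, 28.0 and 20.2 CPM in Control libraries in the other niche cells, a difference of 4.0 ± 0.75 (adjusted p 0.000309). Mesothelial libraries were high with AML, and those of the other niche cells overlapped between groups. Ifit1, of the same family, was at 117, 116 and 8.54 CPM in AML, against 19.9, 0 and 14.9 CPM in Control in mesothelial cells, and at 17.9, 15.5 and 11.6 CPM in AML and 23.6, 36.9 and 28.0 CPM in Control libraries in the other niche cells (difference 3.41 ± 0.79, adjusted p 0.0132). Isg15, the ubiquitin-like modifier, was at 152, 92.6 and 8.54 CPM in AML libraries and 13.3, 33.1 and 44.7 CPM in Control libraries in mesothelial cells, and at 32.9, 23.4 and 22.5 CPM in AML and 39.1, 63.4 and 55.0 CPM in Control libraries in the other niche cells (difference 2.66 ± 0.67, adjusted p 0.0329). AML library 3 was as low as Control in both genes, with 1 UMI each, so their mesothelial groups overlapped.

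Rtp4, an interferon-induced chaperone of receptors, was at 130.1, 30.9 and 85.4 CPM in the AML libraries, against 19.9, 16.6 and 44.7 CPM in the Control libraries in mesothelial cells and at 35.3, 19.8 and 16.4 CPM in AML and 42.2, 70.0 and 55.6 CPM in Control libraries in the other niche cells (difference 2.87 ± 0.67, adjusted p 0.0144). Oasl2, an oligoadenylate synthetase-like protein, was at 229.9, 270 and 299 CPM in AML, against 266, 149 and 209 CPM in Control in mesothelial cells, with overlap, but at 29.2, 12.9 and 13.1 CPM in AML and 41.8, 46.9 and 41.0 CPM in Control libraries in the other niche cells (difference 1.68 ± 0.42, adjusted p 0.0329). Most of its difference thus lay in the other niche cells. Ifi44 had 9, 4 and 1 UMIs in AML and 0, 1 and 0 UMIs in Control mesothelial cells, and 7.89, 4.39 and 3.75 CPM in AML and 21.8, 25.9 and 23.6 CPM in Control libraries in the other niche cells (difference 5.03 ± 1.24, adjusted p 0.0263). Calls of these 5 genes were lost without some libraries: Ifit1 without AML library 1 (adjusted p 0.326), AML library 2 (0.194) or Control library 2 (0.188), Isg15 without any library but AML library 3 (up to 0.988), Rtp4 without AML library 1 (0.314) or 3 (0.106) or Control library 1 (0.0653) or 2 (0.181), Oasl2 without AML library 2 (0.434) or 3 (0.477) or Control library 2 (0.372) or 3 (0.101), and Ifi44 without any library but AML library 3 or Control library 2 (up to 0.390). Isg15, Oasl2 and Ifi44 were also lost without the deepest cell of each library, at adjusted p values of 0.185, 0.108 and 0.131. Reads of Ifit3 can be shared with its near copy Ifit3b and reads of H2-T23 with other class I genes, so these counts are uncertain to that extent.

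**Figure D5:**
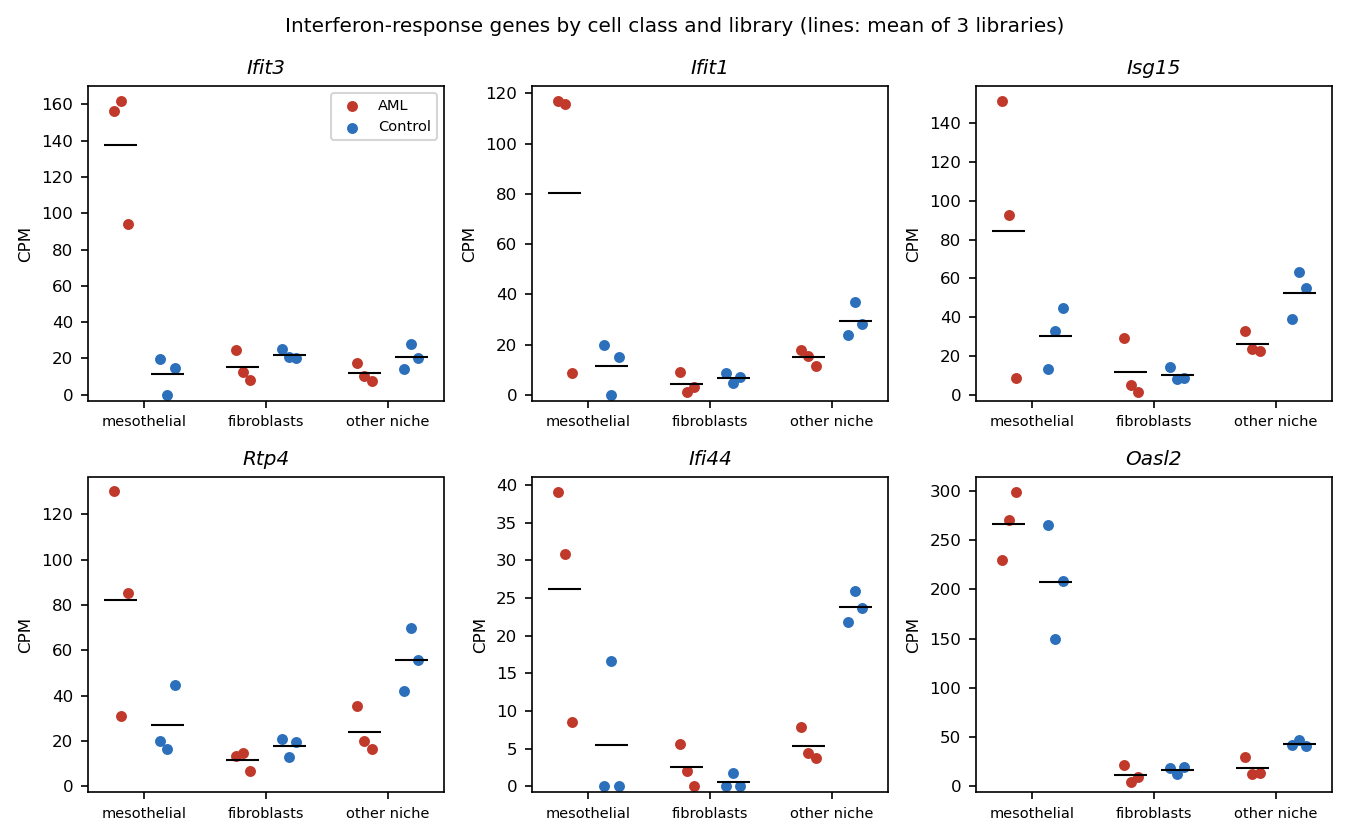
CPM (vertical axes) of Ifit3, Ifit1, Isg15, Rtp4, Ifi44 and Oasl2 in each library (points, with lines at the mean of 3 libraries) for mesothelial cells, fibroblasts and the other niche cells, AML points left of Control points within each class. Ifit3 lies between 94.0 and 162 CPM in AML mesothelial cells and at or below 19.9 CPM in Control mesothelial cells, while the other niche cells lie at 28.0 CPM or less in both groups.

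The starts of 4 genes among the 33 called against the other niche cells are shown because their windows hold the letters GAAANNGAAA, which recur in elements bound by interferon regulatory factors, or their reverse complement TTTCNNTTTC. Sequences are from RefSeq for GRCm38.p6 (mm10), 250 bases before to 50 after the start, 5′ to 3′ on the gene's strand, with matches in capitals; matches that overlap run together.
Ifit3, chr19:34583279-34583578, plus strand: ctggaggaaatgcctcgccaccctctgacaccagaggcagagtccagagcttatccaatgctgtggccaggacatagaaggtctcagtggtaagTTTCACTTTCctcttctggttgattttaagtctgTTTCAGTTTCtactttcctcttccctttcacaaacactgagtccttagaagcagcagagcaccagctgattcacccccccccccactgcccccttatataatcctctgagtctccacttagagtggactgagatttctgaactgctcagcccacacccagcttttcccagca
Ifit1, chr19:34640639-34640938, plus strand: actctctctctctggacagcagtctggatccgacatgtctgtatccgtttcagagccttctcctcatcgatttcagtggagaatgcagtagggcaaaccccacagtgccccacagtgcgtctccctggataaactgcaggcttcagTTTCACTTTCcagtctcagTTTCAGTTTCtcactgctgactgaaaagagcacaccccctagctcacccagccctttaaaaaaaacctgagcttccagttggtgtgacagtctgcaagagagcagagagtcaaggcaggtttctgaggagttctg
Isg15, chr4:156200769-156201068, minus strand: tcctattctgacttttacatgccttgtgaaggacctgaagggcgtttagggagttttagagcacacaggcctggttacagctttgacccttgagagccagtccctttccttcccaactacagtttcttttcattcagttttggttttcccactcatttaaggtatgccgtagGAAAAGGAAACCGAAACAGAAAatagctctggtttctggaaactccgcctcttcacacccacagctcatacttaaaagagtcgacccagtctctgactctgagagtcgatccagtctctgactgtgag
H2-T23, chr17:36032652-36032951, minus strand: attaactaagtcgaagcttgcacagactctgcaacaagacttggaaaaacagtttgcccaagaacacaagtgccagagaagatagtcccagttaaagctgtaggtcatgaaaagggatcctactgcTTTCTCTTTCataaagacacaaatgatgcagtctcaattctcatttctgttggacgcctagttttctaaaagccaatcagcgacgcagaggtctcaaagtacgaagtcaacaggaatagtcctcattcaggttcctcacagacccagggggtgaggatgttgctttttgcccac
The letters were in 1131 of 32851 windows of this length (3.44%), or in 1079 of 27025 genes with a window (3.99%). Among the interferon list they were in 11 of 19 genes with a window (57.9%), and among the 33 called genes in 5 of 25 with a window (20.0%), namely Ifit3, Ifit1, Isg15, Gbp3 and H2-T23. Ifi44 and Oasl2 had no match in their windows. A match is a match of letters and not a measured binding site. By GENCODE M21 for mm10, Ifit3 lies at chr19:34583531-34588731 and Ifit1 at chr19:34640871-34650009, both on the plus strand, and H2-T23 at chr17:36029773-36032855 on the minus strand. The GENCODE start of H2-T23 lies upstream of the RefSeq start used for its window. By GENCODE its match therefore falls after the start.

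H2-T23, a non-classical MHC class I gene, was at 304, 262 and 231 CPM in AML libraries and 86.4, 116 and 134 CPM in Control libraries in mesothelial cells without overlap, and at 412, 172 and 221 CPM in AML and 280.2, 479.7 and 398 CPM in Control libraries in the other niche cells (difference 1.89 ± 0.43, adjusted p 0.0122). Its call was lost without AML library 2 (0.194) or 3 (0.0528) or Control library 2 (0.167). Gbp3, a guanylate-binding protein, had 22, 7 and 3 UMIs in AML and 2, 1 and 4 UMIs in Control mesothelial cells and a difference of 3.40 ± 0.77 (adjusted p 0.0116), lost without AML library 1 (0.128) or 2 (0.128) or Control library 1 (0.193). Of 19 MHC class I genes 1 was called above 0 (list median 0.75), and of 19 interferon gamma genes Gbp3 (median 1.61). Over all 13804 genes tested, 23 were called above 0 (0.167%) and the median was 0.14. The interferon gamma list summed to 645 ± 267 CPM in AML and 678 ± 208 CPM in Control mesothelial cells. In the other niche cells it summed to 525 ± 271 CPM in AML and 1152 ± 70.0 CPM in Control libraries.

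Outside the interferon genes, Gsta3, a glutathione S-transferase, had the smallest p of this comparison, below 0. Gsta3 was at 1136, 1288 and 513 CPM in the AML libraries, against 731, 1027 and 1236 CPM in the Control libraries in mesothelial cells, so the mesothelial groups overlapped, with means of 979 ± 411 CPM in AML and 998 ± 254 CPM in Control (SD, n = 3 each). In the other niche cells it was at 52.2, 133 and 82.6 CPM in AML, against 15.8, 15.8 and 20.6 CPM in Control libraries, without overlap (difference -2.25 ± 0.36, adjusted p 9.06e-06). It was called under all 14 alternatives. Fibroblasts had 597, 1180.0 and 651 CPM in AML, against 139, 138 and 149.6 CPM in Control libraries, and the difference from them was -2.47 ± 0.35 (adjusted p 4.7e-06).

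Of the other genes of smallest p above 0, Anxa8 differed from the other niche cells by 2.90 ± 0.57 (adjusted p 0.00108; 0.190 without AML library 2). Arhgef12, a guanine nucleotide exchange factor, was at 1193, 1589 and 1358 CPM in AML, against 1229, 364 and 521 CPM in Control in mesothelial cells, and at 344, 364 and 299 CPM in AML and 642, 442 and 386 CPM in Control libraries in the other niche cells (difference 1.68 ± 0.36, adjusted p 0.00535; 0.284 without Control library 2 and 0.0528 without AML library 3). Control libraries 2 and 3 were low and Control library 1 was not. In Control library 1, 129 of the 185 UMIs came from the 64184-UMI cell. Without the deepest cell of each library Arhgef12 was at 1234, 1698 and 1295 CPM in AML, against 649, 355 and 637.5 CPM in Control, and the call was kept. Tat was at 239, 957 and 145 CPM in AML libraries and 66.4, 331 and 149 CPM in Control libraries in mesothelial cells and at no more than 1.25 CPM in the other niche cells, where few UMIs set its difference of 4.43 ± 0.79 (adjusted p 0.000112). That call was lost without the deepest cell of each library (2.05, adjusted p 0.405), without AML library 2 (0.176) and without Control library 1 (2.63, adjusted p 0.521). Emp2, an epithelial membrane protein, differed by 2.39 ± 0.43 (adjusted p 0.000112), with 54 of its 140 AML UMIs in the alveolar type 1 marked cell. It was at 213, 147 and 615 CPM in AML, against 93.0, 133 and 149 CPM in Control mesothelial cells, with overlap. The other niche cells had 417.5, 261 and 383 CPM in AML and 699, 880 and 704 CPM in Control libraries, without overlap. Part of the Emp2 difference thus lay in the other niche cells. The Emp2 call was lost without AML library 3 (1.82, adjusted p 0.0867).

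The calls of the named genes below 0 other than Gsta3 were lost without the 64184-UMI cell of Control library 1 and the deepest cells of the other libraries. That cell held 64 of 70 Control UMIs of the glutathione transferase Gstm5, 48 of 65 of the growth factor Igf1, 20 of 21 of the condensin gene Ncapg2 and 42 of 85 of Sema5a. The differences were -3.18 ± 0.64, -4.59 ± 0.96, -5.55 ± 1.27 and -2.03 ± 0.45 (adjusted p 0.00181, 0.00373, 0.0122 and 0.00886). Without the deepest cell of each library they were -0.25, -3.29, -1.76 and -1.40, and none was called. Most of the difference remained in Igf1 and Sema5a and little of it in Gstm5. Igf1 was at 4.34, 7.72 and 0 CPM in AML, against 352, 182 and 14.9 CPM in Control. Without Control library 1 the differences were -0.98, -3.45, -2.37 and -1.74, and none was called. Igf1 and Ncapg2 were also lost without AML library 1 (adjusted p 0.260 and 0.377) or 3 (0.0780 and 0.0528), and Sema5a without AML library 2 (0.442) or 3 (0.0528). Leaving out the deepest cells took the calls above 0 to 19 of 13750 genes and those below 0 to 2.

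Set against fibroblasts, mesothelial cells differed in 13 of 8159 genes (0.159%; 7 above 0, 6 below). The number was 10 to 64 when 1 library was left out, 10 without Control library 2 and 64 without AML library 3. Of the 13, Ifit3, Ckb, Gsta3, Pkhd1l1 and Arhgdib were called under all 14 alternatives. Ifit3 in fibroblasts was at 24.7, 12.4 and 8.34 CPM in AML and 25.1, 20.9 and 20.5 CPM in Control libraries, with overlap, and the difference of mesothelial cells from them was 3.92 ± 0.79 (adjusted p 0.00577). Of 18 type I interferon genes tested in this comparison Ifit3 alone was called. The list median was 1.02, beside 0.09 over all genes tested and 1.22 in the list of mesoderm transcription factors.

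Pkhd1l1, a large membrane protein and one of the 25 genes of highest mesothelial ratio, was at 534, 116 and 393 CPM in the AML libraries, against 638, 878 and 775 CPM in the Control libraries in mesothelial cells, without overlap, and fibroblasts had 15.7, 5.17 and 3.03 CPM in AML, against 0, 0.908 and 0 CPM in Control libraries (difference -4.86 ± 0.82, adjusted p 0.000162). Arhgdib, a GDP dissociation inhibitor, was at 390.4, 316 and 325 CPM in AML, against 233, 331 and 387 CPM in Control in mesothelial cells, with overlap, while fibroblasts had 64.1, 29.99 and 24.3 CPM in AML, against 2.18, 4.54 and 9.65 CPM in Control libraries (difference -2.62 ± 0.50, adjusted p 0.00205). For Arhgdib the groups thus stood apart in fibroblasts and not in mesothelial cells. The barcodes kept out of the niche cells, blood and leukaemia cells, held Arhgdib at 460.4, 491.5 and 493 CPM in AML, against 426, 780.2 and 721 CPM in Control libraries. Pkhd1l1 was at 38.5, 18.9 and 38.9 CPM in AML, against 1.5, 20.9 and 1.10 CPM in Control libraries, in the same barcodes. The part of such RNA in the fibroblast values was not tested. Ckb, a creatine kinase, had 17, 4 and 12 UMIs in AML and none in Control mesothelial cells, against 120.3, 26.9 and 152 CPM in AML and 194, 322 and 139 CPM in Control fibroblasts. Its fitted difference of 9.32 ± 1.41 (adjusted p 1.36e-05) depends on how 0 is treated and is no bound.

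Fkbp5, a co-chaperone of the glucocorticoid receptor and one of its best known targets, was at 208, 471 and 427 CPM in AML libraries and 213, 182 and 119 CPM in Control libraries in mesothelial cells, and at 99.0, 126 and 113 CPM in AML and 208, 168 and 164 CPM in Control fibroblasts. AML libraries 2 and 3 were above all Control libraries in mesothelial cells, and all AML libraries were below the Control libraries in fibroblasts, a difference of 1.73 ± 0.38 (adjusted p 0.0166) that was lost without AML library 2 (0.0717), without Control library 2 (0.0682) and without the deepest cells (1.41, adjusted p 0.0645). Gucy1a1, a subunit of the nitric oxide receptor, was at 169, 162 and 154 CPM in the AML libraries, against 53.2, 116 and 253 CPM in the Control libraries in mesothelial cells, with overlap, and at 73.1, 71.4 and 127 CPM in AML and 212, 342 and 278 CPM in Control fibroblasts, without overlap (difference 2.07 ± 0.43, adjusted p 0.00835; 0.121 without Control library 2). Adamts1, a matrix protease, had 8, 8 and 3 UMIs in AML and 1, 0 and 0 UMIs in Control mesothelial cells, and 243, 473 and 572 CPM in AML and 1008, 506 and 583 CPM in Control fibroblasts (difference 4.42 ± 0.95, adjusted p 0.011; 0.0768 without Control library 1). The other called genes were Cd9, Arhgef12, Sfrp1, Hba-a1 and AC160336.1. Without Control library 2, Cd9, Arhgef12, Sfrp1 and AC160336.1 were not called (adjusted p 0.151, 0.253, 0.121 and 0.151). Sfrp1 and Hba-a1 were also lost without Control library 1 (0.0859 and 0.227) and AC160336.1 without AML library 1 (0.0923). Cd9 was not called with members limited to cells with a UMI of Upk3b (0.151), nor under the stricter or looser rule for members (0.201 and 0.0934) or with doublets removed (0.0632), and Sfrp1 was not under the looser rule (0.0564).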

How the data were processed

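Single-cell data of mouse lung, 3 AML and 3 Control libraries, were deposited by the authors as UMI counts, whole numbers per gene and barcode for 32285 features, on mm10. The submitters' processing notes name Cell Ranger 7.0.0, and the file headers name version 6.0.1. Doublets were not removed from the main values; Scrublet (scanpy 1.11.5, 0.8% expected per 1000 cells) served as an alternative. The mesothelial rule, the gene lists and the tests were chosen with earlier results of these data known.

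UMIs were summed per library over mesothelial cells, fibroblasts and the other niche cells (barcodes without Ptprc and with at most 1 UMI of Trap1a and Trnp1 that were not mesothelial). CPM are these sums per 1000000 UMIs of the class in the library, not corrected for gene length. Sums were tested with edgeR 4.0.16 (R 4.3.3; TMM scaling, filterByExpr with a minimum count of 10, robust quasi-likelihood fits, Benjamini-Hochberg adjustment, threshold 0.05), without the 11 genes of the rule; the model over 2 classes also had the library as a block, and against fibroblasts left out 15 genes. A log2 difference is AML minus Control. DESeq2 1.42.0 was an alternative. Tests ran on simulated counts beforehand. Every library had 5 or more mesothelial cells.

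Named genes were the 25 of largest ratio to the other niche cells among genes with 40 or more UMIs, the 10 of smallest p per direction without overlap between groups, and the 5 of smallest p per direction in the models over 2 classes; other genes come from 39 lists. Counts of each pair of libraries within a group differed beyond sampling noise (chi-square over degrees of freedom 25.9 to 86.9), so none was a copy of another of its group. AML libraries were not compared with Control libraries in this way. Of 573 listed genes, 572 were in the files. Results of a few genes are not reported here.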

Additional observations from a re-analysis of the deposited data

Results flagged for a closer look

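Each gene below is one whose AML minus Control log2 difference in mesothelial cells was unlike that in a second class of cells, by edgeR's quasi-likelihood test of that difference with Benjamini-Hochberg adjustment; they are the 5 of smallest p per direction in each comparison. Against fibroblasts, the values above 0 were Ckb 9.32, Adamts1 4.42, Ifit3 3.92, Gucy1a1 2.07 and Fkbp5 1.73 on the log2 scale. Below 0 they were Hba-a1 -10.26, Pkhd1l1 -4.86, AC160336.1 -3.38, Arhgdib -2.62 and Gsta3 -2.47. Ckb had no UMI in Control and Hba-a1 none in AML mesothelial cells, so these 2 values depend on how 0 is treated and are no bounds; Hba-a1, an alpha globin gene with a near copy, had 3 UMIs in mesothelial cells in all.

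Against the other niche cells, the values above 0 were Tat 4.43, Ifit3 4.0, Anxa8 2.90, Emp2 2.39 and Arhgef12 1.68. Below 0 they were Ncapg2 -5.55, Igf1 -4.59, Gstm5 -3.18, Gsta3 -2.25 and Sema5a -2.03. Ifit3 and Gsta3 were called in both comparisons and under all 14 alternatives in each. Ncapg2, Igf1 and Gstm5 had 20 of 21, 48 of 65 and 64 of 70 Control UMIs in 1 cell of Control library 1, and Emp2 had 54 of 140 AML UMIs in 1 cell of AML library 3.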

How the results depend on the processing

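The count of 0 called genes between AML and Control mesothelial cells held under every alternative except no filter on low counts (47 of 13198 genes, 35 higher and 12 lower), DESeq2's test (1) and leaving out 1 library (0 to 3). With the replicate number as a block it was also 0, with 170 genes at an unadjusted p under 0.05. Deviations of same-numbered libraries correlated at -0.0224, 0.0549 and 0.00295, and those of differently numbered libraries at -0.0546 to 0.0622. With so few cells per library, such values cannot exclude a pairing by number, and none was shown. The 13 calls against fibroblasts became 43 without the filter, 54 at a minimum count of 5, 21 under the stricter rule for members, 49 without the deepest cell of each library, 32 with only cells holding Upk3b UMIs (chosen after seeing the data) and 10 to 64 without 1 library. The 33 calls against the other niche cells became 21 without the deepest cells and 16 to 29 without 1 library. The cause was not tested. The difference in share ran from 0.144 to 0.306 percentage points without 1 library. Of 592 values of named genes under alternatives, 548 kept their direction and side of the threshold, 15 came past it, 29 fell short of it and none changed direction. For the named genes within mesothelial cells, none of them a call, keeping their side meant staying uncalled. Of the 33 calls against the other niche cells, 2 were kept under all 14 alternatives, and of the 13 against fibroblasts 5 were. Marcks, a call below 0 against the other niche cells and not a named gene, changed direction. It was at 1.07 without the deepest cells and 0.94 without Control library 1. Leaving out libraries with under 5 members left the set as it was, since all had 5 or more. Depth limits what could be seen: 2174 genes had enough UMIs to be tested within mesothelial cells, and a gene at 0 is not shown to be absent.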
